A study of Mus musculus with 20 samples.

Results

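The comparison set the 3 libraries of hindlimb skeletal muscle irradiated at conventional dose rate (CONV) against the 7 other muscle libraries, 3 sham and 4 FLASH, taken as 1 group. These were 10 of the 20 libraries of the series; the other 10 were of skin. All mice were wild-type C57BL/6J. CONV and FLASH muscle had been given an electron dose of 35 Gy by a linear accelerator, and sham muscle none. All tissue was taken from the left hindlimb at 70 days. At FLASH rate a dose takes less than a second to deliver, and conventional irradiation spreads it over a longer time. Sham and FLASH were pooled because the sham and FLASH file names disagreed with their records in 5 muscle libraries (sham 2 and 3, FLASH 1, 2 and 3), whereas the 3 CONV files did not, so the pooled comparison is the same under either reading. It therefore asks how CONV muscle differs from a mixture of unirradiated and FLASH-irradiated muscle, not from sham muscle. The labels number the libraries of a group without saying that each came from a separate mouse, so the p-values measure the spread between these libraries, which may be partly technical.

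Skeletal muscle consists mainly of long multinucleated fibres whose nuclei no longer divide. Fibres are slow or fast according to the myosin, troponin and calcium pump genes they use. Muscle is also a main site where ammonia and glutamate are made into glutamine for the rest of the body, a step that is induced by glucocorticoids and in wasting muscle. Satellite cells, fibroblasts, vessels, nerves and blood lie between the fibres and add their own RNA to a bulk sample. In such samples fewer cells of a type and less RNA per cell cannot be told apart.

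The libraries held 10198699 to 12336479 estimated counts, and 17629 to 18662 genes had a count. Between 60.0% and 65.1% of a library's counts fell on its 10 leading genes. Mitochondrially encoded genes took 6.23%, 6.60% and 7.10% of counts in CONV 1, 2 and 3 and 5.67% to 11.0% in the other 7. The 10 defining genes of skeletal muscle fibres summed to between 97300 and 107864 CPM (counts scaled to the library size, with TMM factors) in CONV and between 86877 and 121220 CPM in the others, so the defining genes of the labelled tissue were abundant in every library. The keratinocyte gene Krt14 was too low in muscle to be tested, with 2.72 CPM in FLASH 4 and at most 0.491 CPM in any other library.

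Of 13080 genes tested, 8 passed an adjusted p of 0.05 (0.0612%) in edgeR's quasi-likelihood test with Benjamini-Hochberg adjustment. Among them 6 were higher in CONV (0.0459% of the genes tested) and 2 were lower (0.0153%). The higher genes were Glul, Adora1, Nrip1, Pcnt, Fam126b and Frem2, and the lower ones were Mettl11b and Adgrl1. At an unadjusted p under 0.05, 762 genes were higher (5.83%) and 793 lower (6.06%). In 259 genes all 3 CONV libraries lay above all 7 others (1.98%), and in 323 they lay below them (2.47%). The median log2 fold change over all genes tested was 0.01, a value that TMM scaling holds near 0. Of all genes tested, 51.3% had a positive log2 fold change.

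**Figure D1:**
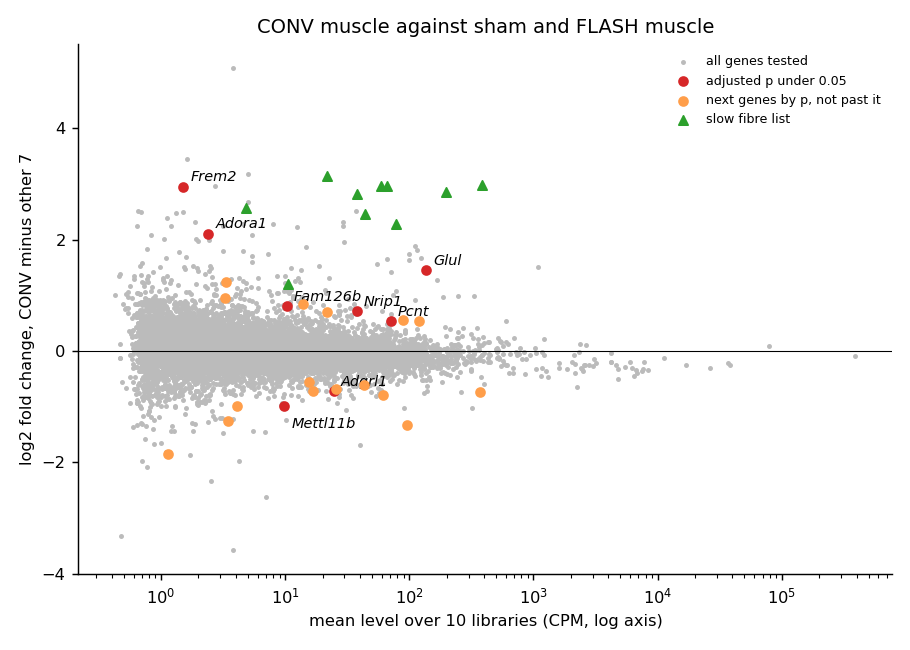
Log2 fold change (CONV minus the other 7 muscle libraries) against mean level in CPM on a log axis, 1 point per gene tested. The 8 genes past the threshold are named in red. The 16 genes that filled each direction to 12 by smallest p are orange. The 10 slow fibre genes, with a median of 2.84 but none past the threshold, are green triangles.

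The genes with the smallest p in each direction were Glul and Mettl11b. The 250 bases before the start of each are shown because they are part of the promoters that were searched for the 3 motifs given below. They are from RefSeq on GRCm38.p6, 5′ to 3′ on the gene's strand, with CCAAT boxes and GC boxes (GGGCGG) in capitals, motifs that were chosen after the sequences were seen. Glul lies on the plus strand, and its bases are at chr1:153899679-153899928. Mettl11b lies on the minus strand, and its bases are at chr1:163725233-163725482.
Glul: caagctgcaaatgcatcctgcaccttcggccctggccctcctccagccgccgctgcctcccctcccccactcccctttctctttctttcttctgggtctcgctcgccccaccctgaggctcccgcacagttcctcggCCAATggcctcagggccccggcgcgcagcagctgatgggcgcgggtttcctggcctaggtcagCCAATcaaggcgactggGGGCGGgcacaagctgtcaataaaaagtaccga
Mettl11b: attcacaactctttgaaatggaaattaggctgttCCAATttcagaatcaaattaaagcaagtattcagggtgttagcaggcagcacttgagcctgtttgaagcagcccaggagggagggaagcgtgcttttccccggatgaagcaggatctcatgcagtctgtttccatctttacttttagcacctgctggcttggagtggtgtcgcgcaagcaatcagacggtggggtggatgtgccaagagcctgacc
The 300-base promoters of the 8 genes (250 bases before to 50 after the start) were searched on both strands for the FoxO motif GTAAACA, the E-box CACGTG and the glucocorticoid receptor half-site TGTTCT. None of the 8 held any of these letters, which occurred in 3.65%, 7.15% and 19.0% of the 32851 promoters of the table. In the 250 bases before the start alone, on both strands, a CCAAT box was present in 4 of the 8 and in 33.8% of all promoters, and a GC box in 4 of the 8 and in 32.7% of all.

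Glul encodes glutamine synthetase, the enzyme that makes glutamine from glutamate and ammonia (GRCm38, chr1:153899944-153909723, plus strand). Its level was 206, 292 and 239 CPM in CONV 1, 2 and 3. It was 81.5, 84.4 and 93.7 CPM in sham 1, 2 and 3 and 101, 74.6, 72.6 and 120 CPM in FLASH 1 to 4. The lowest CONV library was thus above the highest of the others. By record, sham and FLASH libraries were intermixed. By file name, the sham libraries (81.5, 74.6 and 72.6 CPM) were all below the FLASH libraries (84.4, 93.7, 101 and 120 CPM). Glul rose by 1.45 ± 0.14 on the log2 scale, 2.74-fold (edgeR, adjusted p = 0.000945). It was called with each of the 10 libraries left out in turn, with adjusted p between 8.47e-05 and 0.0179. The transcript Glul-201 held 96.8% ± 2.00 of the gene's counts in CONV (SD, n = 3) and 95.6% ± 2.42 in the others (SD, n = 7), so nearly all of the gene's counts came from 1 transcript in both groups. Per length, Glul stood at 149, 173 and 142 TPM in CONV, against a lowest, median and highest of 35.4, 47.5 and 63.7 TPM in the others. The antisense gene Teddm2, which shares 116 exon bases with Glul, was at 2.85 ± 1.50 CPM in CONV (SD, n = 3) and 2.68 ± 0.48 in the others (SD, n = 7).

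The other genes of glutamine and amino acid handling did not pass the test: 18 of the 19 tested members were not called, and the list's median log2 fold change was 0.18. In 12 of the 19 the fold change was positive. The median was 0.04 without CONV 2 and 0.10 without CONV 3. The glutamine transporter gene Slc38a1 was at 4.67, 5.71 and 5.07 CPM in CONV and 2.56, 3.20 and 4.26 (lowest, median and highest) in the others (log2 0.65 ± 0.17, adjusted p = 0.147). Slc7a8, a transporter of neutral amino acids, was at 17.0, 14.2 and 13.7 CPM in CONV against 5.51, 9.84 and 12.8 (log2 0.63 ± 0.21, adjusted p = 0.274). For both genes every CONV library was above every other library. Glud1, the dehydrogenase that turns glutamate into ketoglutarate, was at 31.4, 35.9 and 37.7 CPM against 37.8, 41.1 and 47.3 (log2 -0.23 ± 0.09, adjusted p = 0.346), with the groups just separated. Of the 19 genes, 3 were higher without overlap, Glul among them, and 1 was lower. Over all genes tested, 1.98% were higher and 2.47% lower without overlap, and these members were picked by p in this same comparison.

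**Figure D2:**
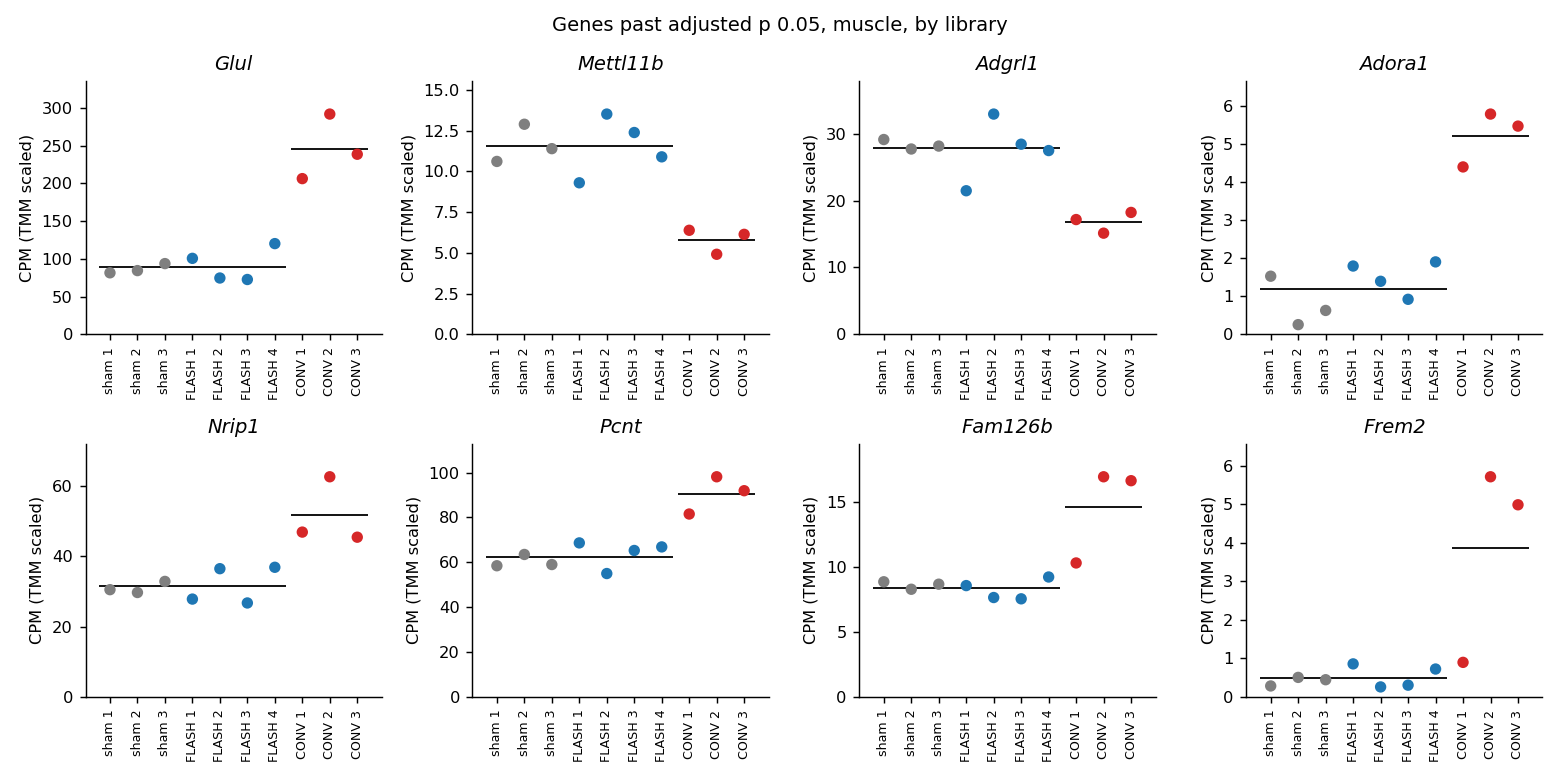
Levels in CPM with TMM scaling of the 8 genes past the threshold, 1 point per muscle library in order of group and replicate, with sham in grey, FLASH in blue and CONV in red; horizontal lines are the means of the 7 other libraries and of the 3 CONV libraries. The groups do not overlap in any panel, but CONV 1 of Frem2, at 0.899 CPM, is close to FLASH 1, at 0.859.

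Adora1, the gene of the inhibitory adenosine A1 receptor, was at 4.40, 5.80 and 5.48 CPM in CONV and at 0.254, 1.39 and 1.91 CPM (lowest, median and highest) in the others. The groups did not overlap, and the gene's total rose by 2.11 ± 0.34 on the log2 scale (adjusted p = 0.0475). This total, however, came from a transcript that lies over another gene. Adora1 is on the minus strand of chromosome 1 (chr1:134199223-134235431), and the transcript Adora1-202 shares 1162 exon bases with Mybph, the gene of myosin binding protein H, on the plus strand. The kit marks the strand of the RNA, but the sources used here do not give whether the counting used it, and without that, reads of Adora1-202 and Mybph cannot be told apart over the shared bases.

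Adora1-202 held 45.8, 70.0 and 66.0 estimated counts in CONV 1, 2 and 3. It held 16.4, 0 and 0 counts in sham 1 to 3 and 20.2, 13.8, 0 and 21 counts in FLASH 1 to 4. Mybph held 867, 690 and 620 counts in the CONV libraries, 432, 25 and 26 in sham and 331, 57.1, 5 and 373 in FLASH. The 3 libraries in which Adora1-202 was listed at 0 were the 3 with the fewest Mybph counts, and the CONV libraries had the most of both. Adora1-201, which shares no exon base with Mybph, held 2.72, 1.83 and 1.47 counts in CONV and 0, 2.58 and 8.80 (lowest, median and highest) in the others, with the CONV libraries inside that range. Mybph itself was at 61.4 ± 14.5 CPM in CONV (SD, n = 3) and 15.8 ± 17.3 in the others (SD, n = 7) and did not pass (log2 1.95 ± 0.98, adjusted p = 0.479). The part of Mybph RNA in the Adora1 result was not tested. Of the 12 other tested genes of adenosine receptors and metabolism, none passed; the AMP deaminase gene of muscle, Ampd1, was at 384, 208 and 286 CPM against 313, 457 and 579 (adjusted p = 0.328), and its counterpart Ampd3 was at 7.10, 20.5 and 13.6 against 4.15, 5.26 and 9.92 (adjusted p = 0.301).

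**Figure D3:**
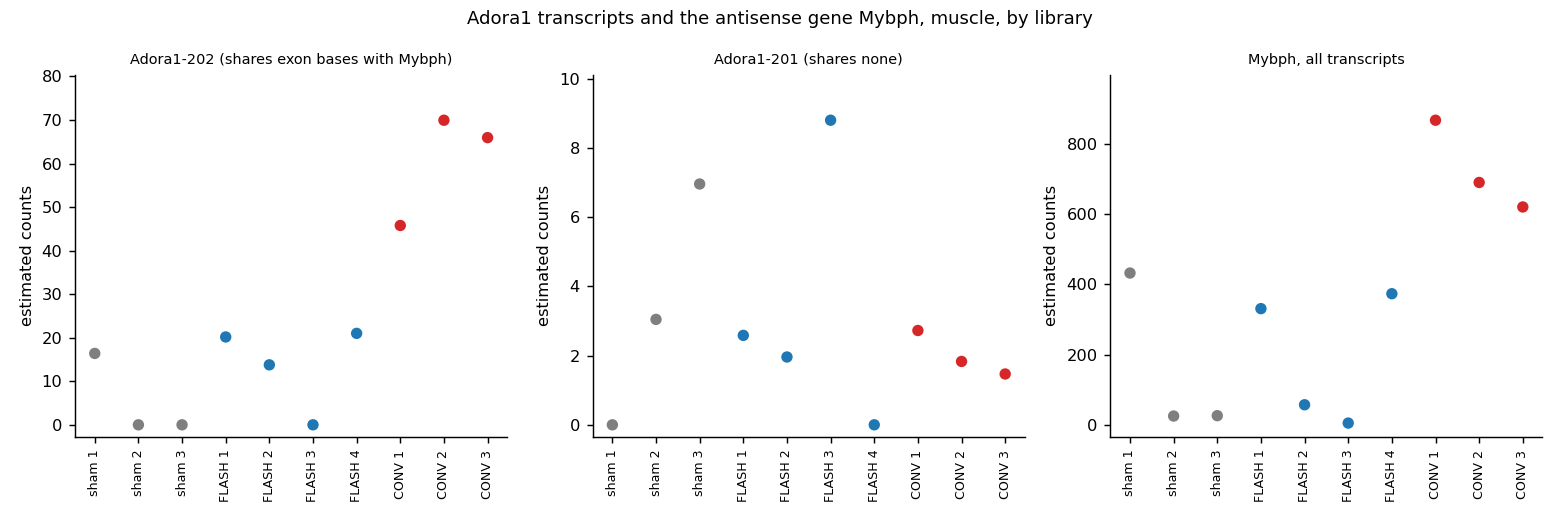
Estimated counts by muscle library of the Adora1 transcript that shares 1162 exon bases with the antisense gene Mybph (left), of the Adora1 transcript that shares none (middle) and of Mybph (right); sham is grey, FLASH blue and CONV red. CONV is highest in the left and right panels and lies within the range of the others, 0 to 8.80 counts, in the middle one.

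The 24 genes named by p were the 8 that passed and the 16 that filled each direction to 12. Of these 24, 6 shared exon bases with another gene, and in 4 of them (Glul, Adora1, Usp2 and Nr1d1) that gene was antisense. The partner of Nr1d1 is the thyroid hormone receptor gene Thra (263 to 324 counts in CONV and 331 to 407 in the others). The 5 called genes besides Glul, Adora1 and Pcnt shared none with another gene, and the partner of Pcnt held at most 2 counts in a library.

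Nrip1, whose product RIP140 is a corepressor of nuclear receptors and restrains oxidative metabolism in muscle, was at 46.8, 62.5 and 45.4 CPM in CONV. The others lay between 26.7 and 36.8 CPM with a median of 30.5, without overlap. Nrip1 rose by 0.71 ± 0.12 on the log2 scale (adjusted p = 0.0475). Pcnt encodes pericentrin, a scaffold of the centrosome, which in muscle fibres sits at the nuclear envelope. Its level was 81.5, 98.1 and 91.9 CPM in CONV and 55.0, 63.5 and 68.7 CPM (lowest, median and highest) in the others, a rise of 0.54 ± 0.09 (adjusted p = 0.0475). A non-coding transcript, Pcnt-208, held 52.7% ± 2.13 of the counts of Pcnt in CONV (SD, n = 3) and 51.7% ± 4.80 in the others (SD, n = 7), so about as much of the signal was from it in each group.

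Fam126b, which belongs to a family of proteins that anchor a phosphatidylinositol kinase at the plasma membrane, was at 10.3 CPM in CONV 1 and at 17.0 and 16.7 CPM in CONV 2 and 3. The other 7 lay within 7.57 to 9.25 CPM, so CONV 1 was only just above them. The gene rose by 0.80 ± 0.14 (adjusted p = 0.0475). Frem2, a large extracellular protein of basement membranes, showed the same split more widely, with 0.899, 5.71 and 4.99 CPM in CONV against 0.262, 0.448 and 0.859 CPM (lowest, median and highest). It rose by 2.95 ± 0.47 (adjusted p = 0.0475), and this rested on CONV 2 and CONV 3.

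Mettl11b, which codes for a relative of the methyltransferase that modifies the N terminus of proteins, was the gene that fell with the smallest p. It stood at 6.38, 4.91 and 6.13 CPM in CONV and at 9.29, 11.4 and 13.5 CPM (lowest, median and highest) in the others, and fell by 0.99 ± 0.14 (adjusted p = 0.0198). Its transcript Mettl11b-202, annotated as a target of nonsense-mediated decay, held 16.7% ± 2.15 of its counts in CONV (SD, n = 3) and 11.3% ± 3.85 in the others (SD, n = 7). Adgrl1, the adhesion receptor latrophilin 1, was at 17.2, 15.1 and 18.2 CPM in CONV and 21.5, 28.2 and 33.0 CPM in the others, and fell by 0.73 ± 0.12 (adjusted p = 0.0475). The groups did not overlap for either gene, and the lowest of the 7 others was FLASH 1 in both.

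The number of calls turned on single libraries. Without CONV 1 it was 89 (64 higher, 25 lower) and without FLASH 1 it was 31 (19 higher, 12 lower), and all 8 genes were among both sets. Without any 1 of the remaining 8 libraries it was 1 to 3. Mettl11b was called in 6 of these 10 fits and Adora1 in 3, whereas Nrip1, Pcnt, Fam126b, Frem2 and Adgrl1 were called in 2 each. With the 5 libraries of disagreeing names left out, which leaves sham 1 and FLASH 4 against the 3 CONV libraries, edgeR called 0 genes (828 at an unadjusted p under 0.05), and Glul stood at log2 1.28 with an adjusted p of 0.603.

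The next genes by p in each direction, taken until 12 were named in each, did not pass, with adjusted p from 0.0517 to 0.0875. The numbers of 6 higher and 10 lower genes among them follow from that rule. The CONV libraries lay on one side of all the others for each of these 16. Over all genes tested, they lay above in 1.98% and below in 2.47%. The 16 were picked by p in this same comparison, so their separation is no further support. Among those with higher values were Slc4a3, an anion exchanger (3.95, 7.57 and 5.23 CPM against 1.43 to 2.87), and Ddt, a tautomerase related to the cytokine MIF (4.85, 4.59 and 5.31 against 2.10 to 3.12). Usp2, a ubiquitin protease that follows the clock, was at 105, 117 and 118 CPM against 63.7 to 83.8, and the Z-disc gene Pdlim5 at 131, 181 and 150 against 93.5 to 121. Adamtsl4, a microfibril-associated protein, and Tecpr2, which takes part in autophagy, completed the 6. Among the 10 genes with lower values was Mylk2, the myosin light chain kinase of skeletal muscle, at 274, 248 and 240 CPM in CONV and 324, 436 and 525 (lowest, median and highest) in the others (log2 -0.74 ± 0.13, adjusted p = 0.0517). The kinase gene Tnk2 was at 11.1, 11.6 and 11.8 CPM against 16.0 to 24.5. The chemerin-binding receptor gene Ccrl2 was at 2.52, 1.21 and 1.55 against 3.05 to 5.60. The basement membrane collagen gene Col4a4 was at 2.70, 2.33 and 2.21 CPM against 3.50 to 6.08. The lower genes also included Nr1d1 (given with the clock genes), Ssx2ip, Mtss1l, Castor2 and Gm904.

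The slow fibre genes had the largest differences of any list but CONV 1 did not share them. All 10 had a positive log2 fold change, with a median of 2.84, and none passed (smallest adjusted p 0.319). Myh7, the slow myosin heavy chain, was at 12.1, 2159 and 816 CPM in CONV 1, 2 and 3, against 0.921, 46.2 and 440 CPM (lowest, median and highest) in the others. Summed over the list, the level was 82.4, 4813 and 1928 CPM in CONV 1, 2 and 3. The sum was 125, 69.9 and 538 CPM in sham 1 to 3 and 1011, 133, 39.3 and 314 CPM in FLASH 1 to 4. CONV 2 and 3 were thus above every other library, and CONV 1 was below the median of the others. Atp2a2, the slow calcium pump, was also highest in CONV 2 and 3 (35.7, 983 and 466 CPM in CONV), with CONV 1 close to the median of the others (15.1, 32.4 and 196 CPM). Without CONV 2 the median of the list was 1.64, and without CONV 1 it was 3.40.

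Fast fibre genes had the opposite sign in 13 of 14, with a median of -0.26 (-0.44 without CONV 1) and none past the threshold. Myh4, the fastest myosin heavy chain, was at 42441, 25544 and 31035 CPM in CONV and at 32055, 35337 and 50098 CPM (lowest, median and highest) in the others, and CONV 2 and 3 were below all 7. The exception was Myh2 of the fast oxidative fibres (338, 2723 and 2868 CPM in CONV against 189, 374 and 2199). How the piece of muscle was taken from the limb was not recorded in the labels.

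Frem2 and Fam126b were highest in the same 2 CONV libraries as the slow fibre list. Among the others, Fam126b was at 8.89 CPM in sham 1, where the slow sum was 125 CPM, and at 8.59 CPM in FLASH 1, where it was 1011. In the same libraries Frem2 was at 0.287 and 0.859 CPM, the latter its highest level among the others. Glul was at 206 CPM in CONV 1, where the slow sum was 82.4 CPM, and at 101 CPM in FLASH 1. Within CONV, Glul followed the order of the slow sum, at 206, 239 and 292 CPM in CONV 1, 3 and 2. Among the others, Glul was highest in FLASH 4, FLASH 1 and sham 3 (120, 101 and 93.7 CPM). These libraries also had the highest slow sums of the others, at 314, 1011 and 538 CPM. With the mean log2 level of the slow list as a covariate, a fit added after the data had been seen, Glul stood at 1.25 ± 0.12 (adjusted p = 0.000449). Frem2 then stood at 1.86 ± 0.35 and Fam126b at 0.58 ± 0.12 (both adjusted p = 0.228). Mettl11b stood at -0.85 ± 0.14 (adjusted p = 0.0871). That fit called 2 genes in all, Glul and Nr1d1. The part of fibre type in these results was not tested beyond this fit.

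**Figure D4:**
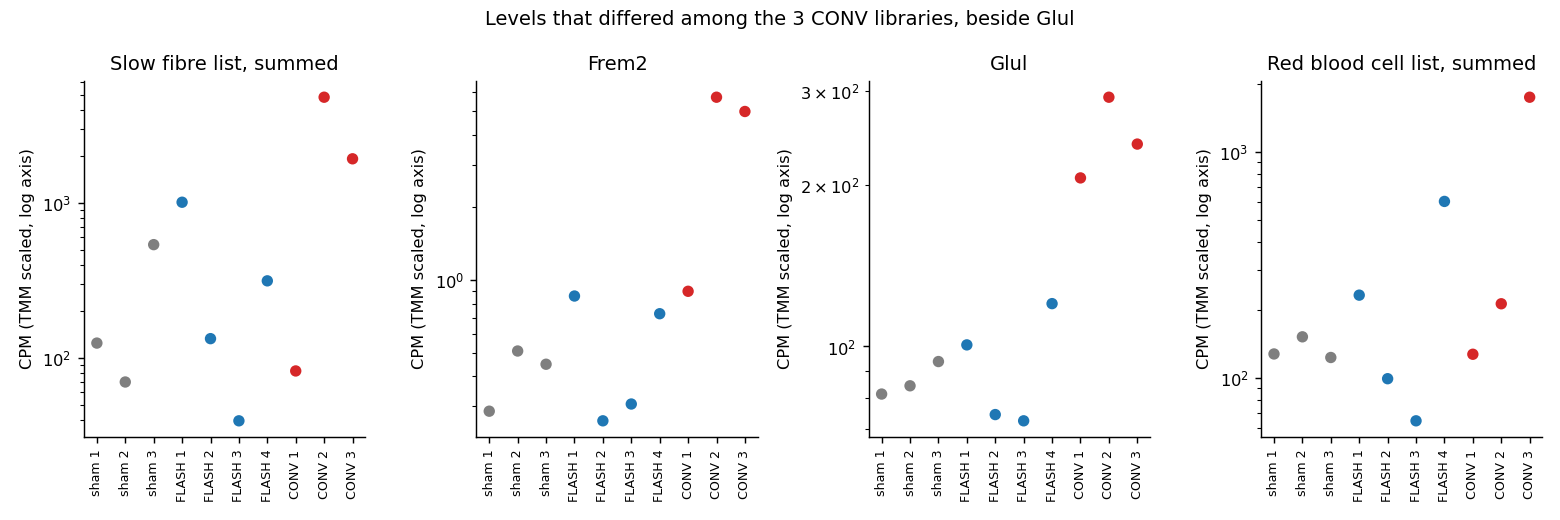
Summed CPM of the slow fibre list, CPM of Frem2 and Glul, and summed CPM of the red blood cell list in the 10 muscle libraries (log axes, 1 point per library; sham grey, FLASH blue, CONV red). The slow list is at 82.4 CPM in CONV 1 and 4813 in CONV 2, whereas Glul is above all other libraries in each of the 3 CONV libraries; the red blood cell list stands out in CONV 3 at 1745 CPM.

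Genes of the stretch and chaperone response had a positive log2 fold change in 15 of 15, with a median of 1.28. None passed, 10 had an unadjusted p under 0.05, and the groups did not overlap for 3, in each case with CONV higher. Over all genes tested, 5.83% were higher at that p and 1.98% were higher without overlap. Hspb1, a small heat shock protein, was at 38.9, 79.4 and 37.9 CPM in CONV against 20.4 to 36.3 in the others (adjusted p = 0.191). The heat shock genes Hspa1a and Hspa1b were at 10.2, 36.1 and 8.10 CPM and 6.29, 24.3 and 6.54 CPM in CONV, against 1.64 to 7.97 and 1.13 to 3.12, and had adjusted p of 0.168 and 0.0875. These 2 genes are near-identical copies, so the division of reads between them is uncertain. CONV 2 was the highest library for all 3. Cryab, a chaperone of the Z-disc that slow fibres also use in quantity, was at 157, 386 and 308 CPM against 81.4 to 183 (adjusted p = 0.153). Xirp1, which marks injured and stretched fibres, was at 442 CPM in CONV 2 but at 54.0 and 69.1 in CONV 1 and 3, inside the 47.0 to 77.6 CPM of the others. Without CONV 2, the list's median was 0.40, and without CONV 1 it was 1.56 and Bag3, Cryab and Hspa1b were called. With the slow fibre level as a covariate the median was 0.24 and 12 of 15 were positive.

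Genes of the neuromuscular junction and of denervation had a positive log2 fold change in 19 of 19, with a median of 0.37, and none passed. Chrna1, the alpha subunit of the muscle acetylcholine receptor, was at 7.10, 9.26 and 6.46 CPM in CONV and 2.51, 3.89 and 6.10 CPM in the others (log2 0.92 ± 0.22, adjusted p = 0.144). Lrp4, the receptor for agrin, was at 15.7, 18.7 and 20.8 CPM against 7.98, 12.8 and 15.2 (log2 0.55 ± 0.16, adjusted p = 0.191). The groups did not overlap for these 2 genes of the 19. Over all genes tested, 1.98% were higher without overlap. The kinase gene Musk was at 36.1, 44.7 and 32.5 CPM against 10.5 to 36.7, and the embryonic myosin gene Myh3 at 0.899, 29.4 and 9.98 CPM against 0.512 to 2.58, again low in CONV 1. Without CONV 1, 17 of the 19 were positive and Myh3 and Dok7 were called.

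In the FoxO and glucocorticoid programme of muscle wasting, to which Glul is often assigned, 18 of 28 genes had a positive and 10 a negative fold change, with a median of 0.06, and none passed. At an unadjusted p under 0.05, 9 of the 28 were higher and 5 lower, beside 5.83% and 6.06% of all genes tested. The median was 0.01 without CONV 2, 0.13 without CONV 1 and 0.11 without CONV 3. The ubiquitin ligase genes that mark wasting had negative fold changes: Fbxo32 was at 374, 167 and 257 CPM in CONV against 267, 344 and 388 (log2 -0.35 ± 0.20), and Trim63 at 105, 69.9 and 88.7 CPM against 87.7, 121 and 127 (log2 -0.38 ± 0.13). Both had overlapping groups. Of the genes induced by glucocorticoids, Mt1, a metallothionein, was at 5.66, 17.5 and 4.17 CPM against 1.43, 2.62 and 3.63 without overlap (adjusted p = 0.153). Fkbp5 was at 17.4, 36.1 and 19.9 CPM against 11.7 to 19.8, and Tsc22d3 at 80.5, 70.3 and 68.6 CPM against 54.4 to 71.8. Klf15 lay at 15.7 to 17.6 CPM in CONV and 15.2 to 18.5 in the others. Bnip3, a receptor for autophagy of mitochondria, was at 64.2, 88.0 and 68.8 CPM against 46.5, 57.5 and 61.8 (adjusted p = 0.175). Of the 28 genes, 3 were higher and 2 lower without overlap, beside 1.98% and 2.47% of all genes tested.

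Clock genes did not pass, and 13 of 19 had a negative fold change, with a median of -0.13 (-0.22 without CONV 1 or without CONV 3, and -0.05 without CONV 2). Nr1d1, the repressor REV-ERB alpha, was at 70.3, 29.1 and 41.2 CPM in CONV and 95.7, 112 and 143 CPM in the others (log2 -1.33 ± 0.24, adjusted p = 0.0875). Per2 was at 16.7, 13.3 and 20.9 CPM in CONV and 4.30, 8.43 and 10.2 in the others (log2 1.04 ± 0.20, adjusted p = 0.0875). These were the 2 clock genes of the 19 without overlap. Over all genes tested, 1.98% were higher and 2.47% lower without overlap. Arntl, which REV-ERB alpha represses, was at 11.7, 13.3 and 7.28 CPM against 9.53 to 15.7, and Dbp at 36.9, 9.82 and 36.9 CPM against 21.7 to 43.2. The labels give no time of day of tissue collection, and its part in these values was not tested.

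No gene of the lists for fatty acid oxidation, glycolysis or the mitochondrial genome passed the threshold. Of 21 genes of fatty acid uptake and oxidation 20 had a positive fold change, with a median of 0.33. Lpl, lipoprotein lipase, was at 110, 364 and 378 CPM in CONV against 75.7, 133 and 273. The fatty acid binding protein gene Fabp3 was at 67.6, 219 and 213 CPM against 43.6, 88.3 and 143. Both were high in CONV 2 and 3 and within the range of the others in CONV 1. Glycolytic genes had a negative sign in 13 of 19, with a median of -0.17, which was -0.32 without CONV 1 and -0.11 without CONV 3. Pfkm, phosphofructokinase of muscle, was at 1150, 1018 and 930 CPM against 1246, 1481 and 1577, without overlap (adjusted p = 0.139). The 13 mitochondrially encoded genes all had a negative sign, with a median of -0.33 and a smallest adjusted p of 0.38. In mt-Nd1 the CONV libraries were below all others, at 5759, 5292 and 5698 CPM against 5797 and more. Of the 19 glycolytic and the 13 mitochondrially encoded genes, 1 each was lower without overlap, beside 2.47% of all genes tested.

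No gene of the lists for radiation response, scarring or inflammation passed the threshold. Among p53 targets 15 of 19 had a positive sign, with a median of 0.21 (0.13 without CONV 3), and none passed. Cdkn1a, the cell cycle inhibitor p21, was at 14.9, 19.6 and 18.2 CPM in CONV, but at 1.91, 5.43 and 16.8 CPM (lowest, median and highest) in the others, with overlap (log2 0.96 ± 0.65, adjusted p = 0.603). By record it was at 1.91, 5.43 and 15.6 CPM in sham 1 to 3 and 16.6, 2.62, 3.99 and 16.8 CPM in FLASH 1 to 4. By file name, sham was at 1.91, 2.62 and 3.99 CPM and FLASH at 5.43, 15.6, 16.6 and 16.8 CPM. The pooled comparison cannot show how CONV differs from sham alone. The matrix list had a negative sign in 22 of 30, with a median of -0.28, and without CONV 3 in 19 of 30, with a median of -0.13. Col1a1 was at 88.4, 92.3 and 121 CPM against 64.8, 143 and 300. Loxl2, which cross-links collagen, was at 5.66, 7.97 and 3.76 CPM against 8.31, 11.8 and 14.8 (adjusted p = 0.147), and Col5a1 at 25.0, 21.2 and 18.9 against 25.5, 30.9 and 42.4 (adjusted p = 0.153), both without overlap. Postn had the opposite sign (8.58 CPM on average in CONV and 3.84 in the others). Of the 30 matrix genes, 3 were lower and 0 higher without overlap, beside 2.47% and 1.98% of all genes tested. Of the 18 neutrophil and acute inflammation genes, 1 was high enough to be tested. Interferon-stimulated genes had 15 of 21 positive and a median of 0.20, but 11 of 21 and 0.02 without CONV 3. Irf7 (2.43, 2.58 and 2.53 CPM against 0.678 to 2.42) and Ifit1 (1.71, 1.53 and 1.47 against 0.697 to 1.41) were the ones without overlap. Over all genes tested, 1.98% were higher without overlap. The polyamine gene Sms, spermine synthase, was at 40.0, 31.3 and 33.9 CPM against 40.3, 53 and 64.3 (adjusted p = 0.147). None of 18 immediate early genes passed, and Atf3 was at 18.3 CPM in CONV 2 but 1.35 and 1.39 in CONV 1 and 3.

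Markers of the other cells in muscle did not separate the groups as lists. Red blood cell genes had a positive sign in 5 of 5 with a median of 1.82, and summed to 127, 213 and 1745 CPM in CONV 1, 2 and 3 and to 64.7, 128 and 604 CPM (lowest, median and highest) in the others. Without CONV 3 all 5 had a negative sign, with a median of -0.18. Macrophage genes were positive in 12 of 12 with a median of 0.36, and none had an unadjusted p under 0.05. Without CONV 2 the median was 0.18, without FLASH 1 it was 0.54, and with the slow fibre level as a covariate 6 were positive and 6 negative. Their sums were 76.4, 93.1 and 69.2 CPM in CONV and 28.8, 65.5 and 89.6 in the others. Fibroblast genes were negative in 9 of 10 (sums 465, 416 and 343 CPM against 404, 525 and 656), and tendon genes in 7 of 8 (sums 100, 164 and 163 against 49.5, 197 and 382). Adipocyte genes were positive in 8 of 9, and the sums of 630, 861 and 621 CPM lay within the 403 to 888 of the others. Endothelial sums were 151, 177 and 189 CPM against 158 to 238, and Schwann cell sums 21.1, 12.6 and 12.3 against 5.92 to 23.6. Satellite cell and myogenic genes were positive in 3 of 7 and negative in 4, with a median of -0.23. Among them, Myod1 was at 11.6, 17.8 and 11.8 CPM in CONV and 6.31, 7.41 and 10.2 in the others without overlap (log2 0.77 ± 0.17, adjusted p = 0.107). It was the only 1 of the 7 without overlap, and 1.98% of all genes tested were higher without overlap. Heyl had a negative sign, with overlap (log2 -0.51 ± 0.17, adjusted p = 0.255). The part of cell makeup in the called genes was not tested.

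**Figure D5:**
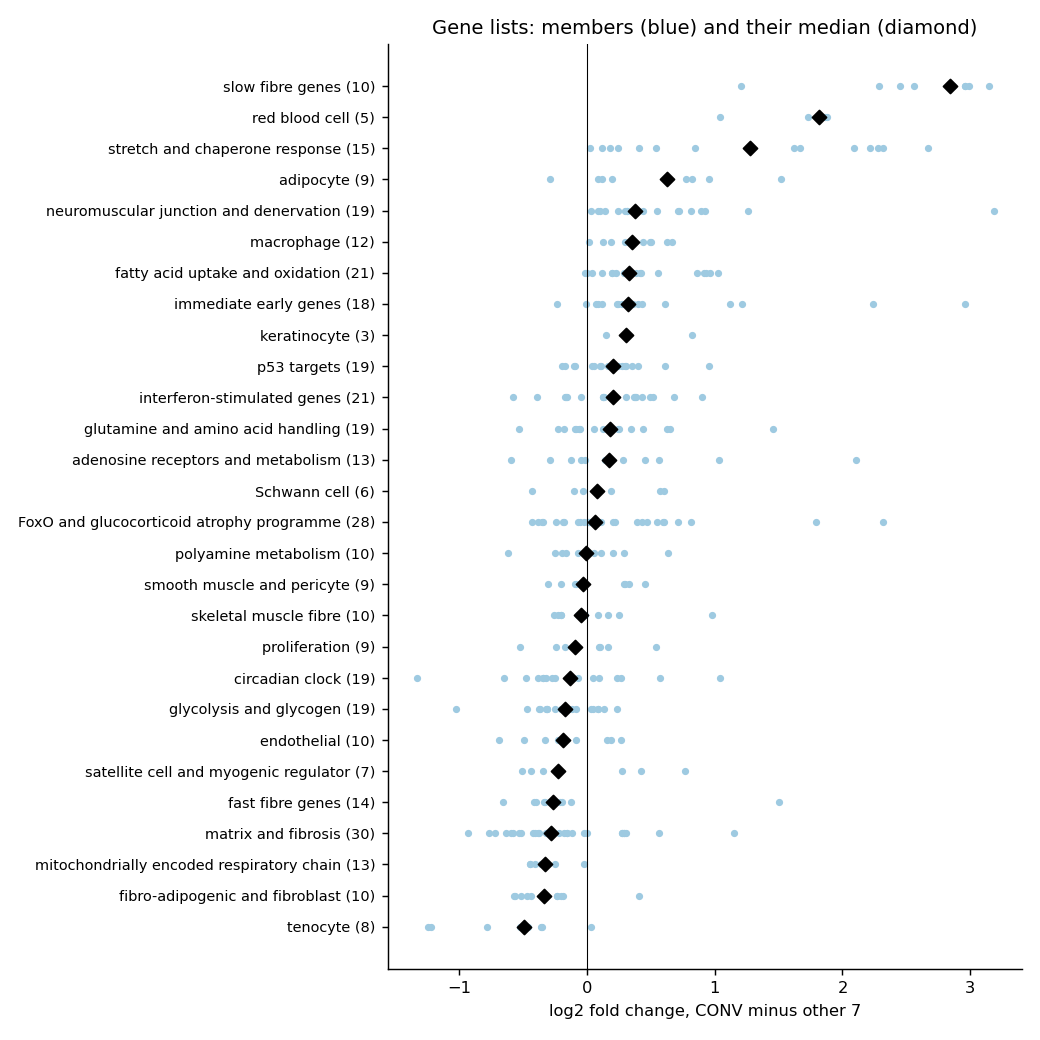
Log2 fold change (CONV minus the other 7) of every tested member (blue points) and the median (black diamond) of each gene list with at least 3 tested members, with that number in brackets. The slow fibre list has a median of 2.84 and the tendon list, at the bottom, is below 0; of all members plotted, Glul and Adora1 alone passed the threshold.

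Skin of the same design was used to ask whether the CONV differences were the same in both tissues. The test of the difference over all 20 libraries covered 19199 genes, called 21, and called 2 of the 24 genes named by p, Frem2 and Fam126b. Tissue and batch coincide, so the tissue and the batch cannot be told apart. The test took all 20 libraries as independent and fitted 1 dispersion per gene over both tissues. The biological coefficient of variation, the spread between libraries beyond counting noise, was 0.414 in skin and 0.168 in muscle. Frem2 differed by 4.31 ± 0.83 on the log2 scale between muscle and skin (adjusted p = 0.0491); in skin it was at 30.6 ± 21.6 CPM in CONV (SD, n = 3) and 79.2 ± 28.2 in the others (SD, n = 7). Fam126b differed by 1.12 ± 0.18 (adjusted p = 0.0290), with 61.7 ± 7.89 CPM in CONV skin (SD, n = 3) and 78.5 ± 6.58 in the others (SD, n = 7). The difference for Glul was 1.42 ± 0.31 and did not pass (adjusted p = 0.0634), and its level in skin was 258 ± 17.2 CPM in CONV (SD, n = 3) and 257 ± 84.9 in the others (SD, n = 7). For Nr1d1 the log2 fold change was -1.33 ± 0.24 in muscle and -1.42 ± 0.47 in skin, and the difference of 0.06 ± 0.50 had an adjusted p of 0.992. For Mettl11b, at 0.451 ± 0.439 CPM in CONV skin (SD, n = 3) and 1.00 ± 1.42 in the others (SD, n = 7), the difference had a standard error of 1.28 and the level in skin was too low to show one. Of the list members that were put to the same test, the collagen genes Col5a1 and Col6a1 differed, by -2.71 ± 0.40 and -2.46 ± 0.47 (adjusted p = 0.0290 and 0.0480). In skin, Col5a1 was at 946 ± 570 CPM in CONV (SD, n = 3) and 216 ± 51.1 in the others (SD, n = 7), and Col6a1 at 539 ± 432 and 149 ± 43.2 CPM.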

How the data were processed

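RNA of mouse hindlimb was sequenced from a stranded total RNA kit with ribosomal RNA removed, per the labels' protocols. The authors deposited, for each library, an estimated count and a TPM value for each of 116116 transcripts, made with kallisto, listed as version 0.5.0, and mm10, per the submitters' processing notes; the annotation release and the use of strand were not given in the sources used here. The deposited estimated counts were not normalized, and TPM corrects for transcript length and library size. Groups followed the records' titles.

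Transcripts were matched to GENCODE M21 (GRCm38) by identifier without version (98.5%, 114322). Unmatched transcripts held 1.58% to 1.78% of muscle counts and were left out. Counts were summed to 35579 genes and rounded. kallisto divides reads among similar transcripts, so near-identical copies are uncertain. edgeR 4.0.16 (R 4.3.3) fitted CONV against the other libraries with TMM scaling, filterByExpr, robust quasi-likelihood dispersions and Benjamini-Hochberg adjustment (threshold 0.05); a log2 fold change is given ± its standard error. The script was tested on simulated data in which 100 genes were changed 2-fold and 100 were changed 4-fold. It called 83 and 99 of them, and also 15 genes that had not been changed. The changed genes were drawn only from genes above a floor of mean count, so these numbers do not cover genes of low level. The simulation used the fitted dispersions and held no differences in fibre type between libraries. Alternatives included DESeq2 1.42.0. Chi-square per degree of freedom was 6.13 to 42.5 over the 45 pairs of muscle libraries, so no pair agreed within sampling noise. The biological coefficient of variation was 0.168.

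The 8 genes past the threshold were all named, then genes by smallest p to 12 in each direction (protein-coding, at least 1 CPM), and from each of 31 lists (465 entries) called members and up to 3 others by p; further list members were chosen after their values were seen, and some genes are not reported here. Members and lists were chosen with earlier results of these data known. Groups are said not to overlap when every CONV library lies on one side of all 7 others.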

Additional observations from a re-analysis of the deposited data

Results flagged for a closer look

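In 5 of 87 genes screened, 1 of the 7 sham and FLASH libraries stood apart from the other 6 by Dixon's test; chance alone gives about 1 in 20. These were Slc4a3 in sham 1 (1.43 CPM), Adamtsl4 in FLASH 3 (9.41 CPM), Adgrl1 in FLASH 1 (21.5 CPM), Glud1 in sham 2 (47.3 CPM) and Itga7 in FLASH 3 (45.7 CPM). For Adgrl1, the low value of FLASH 1 lies on the side of the CONV libraries, and without that library the gene was still called.

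The response to CONV differed between muscle and skin, by the test of the difference itself, for Frem2 (4.31 on the log2 scale, muscle minus skin) and Fam126b (1.12). These 2 genes were higher in CONV muscle and lower on average in CONV skin, where neither passed. Both were also lower in CONV 1 than in CONV 2 and 3 of muscle. It differed the opposite way for Col5a1 (-2.71) and Col6a1 (-2.46), which were lower in CONV muscle without passing and rose in CONV skin (log2 2.13 ± 0.32 and 1.86 ± 0.38, adjusted p = 0.0352 and 0.0474). These were 4 of 87 genes put to the test.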

How the results depend on the processing

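The count of 8 genes (6 higher, 2 lower) was unchanged with RLE or upper-quartile factors and without the 10 most abundant genes. It was 53 (24, 29) with no filter on low counts, 2 (1, 1) with a count of at least 30 in at least 3 libraries, 150 (65, 85) with DESeq2, which called 7 of the 8, and 2 (1, 1) without robust estimation. Leaving out 1 library gave 1 to 89 calls (1 to 64 higher, 0 to 25 lower). With 3 groups fitted together it was 3 (2, 1) by record and 52 (28, 24) by file name; without the 5 libraries of disagreeing names it was 0 (0, 0). With the slow fibre level as a covariate, added after the data had been seen, it was 2 (1, 1). With the replicate number as a block in edgeR it was 1 (1, 0), Glul, with adjusted p = 0.00217. Deviations of libraries with the same number by record correlated at -0.23 to 0.21. These values cannot decide whether the numbers pair the samples, because the names of 5 libraries disagree with their records. The number of named genes that differed between tissues was 2 with TMM and 3 with RLE factors. None of the 87 single genes refitted changed direction, the slow fibre genes not being refitted with their own level as covariate. Some list medians did change sign, such as that of the red blood cell list, which had 5 of 5 positive, and 0 of 5 without CONV 3. The causes were not tested. Scaling moved no list's median beyond the spread of its members.

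The 3 CONV libraries differ widely in slow fibre and red blood cell genes, and the 7 others mix 2 treatments whose libraries carry disagreeing names. Apart from Glul, no gene was called with every library left out in turn. The muscle libraries give few counts to genes of low level: Adora1 rests on at most 70.0 estimated counts of its main transcript in a library.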
